A study of Mus musculus with 2 samples.

Results

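Cluster 2 is one of the 18 clusters that the authors drew from GFP-positive mammary tumor cells, and its members were taken as all cells that the deposited annotation assigns to cluster 2. It held 709 of 9159 annotated cells, 47 of 3829 in mouse 1 and 662 of 5330 in mouse 2. These were 1.23% of annotated cells in mouse 1 (95% Clopper-Pearson interval 0.903% to 1.63%) and 12.4% in mouse 2 (11.5% to 13.3%), so the cluster rests largely on one animal. The intervals cover counting error only. Its working name is that of luminal progenitor-like cells that express Spp1, from the markers Krt18, Spp1 and Lcn2.

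The tumors arose in mice that carried Krt8-CreERT, Rosa26-mTmG and MMTV-PyMT, in which the MMTV promoter drives the polyoma middle T oncogene in mammary epithelium, tamoxifen activates Cre in Krt8-expressing luminal cells, and the reporter turns those cells and their descendants green. Tamoxifen was given to each mouse at 150 mg/kg, on 6 days spread over weeks 5 and 6, and tumors were taken at 1.5 cm3. Live cells negative for CD31 and CD45 and positive for GFP were sorted, so that the sort kept cells of the labelled luminal lineage, from 1 condition and 2 mice. The comparison is of cluster 2 with all other annotated cells of the same mouse.

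Luminal progenitors are the hormone receptor-poor cells of the mammary duct that give rise to the milk-secreting alveoli. They are known for the transcription factor Elf5, the receptor Kit and secreted defence proteins such as lipocalin 2 (Lcn2) and lactoferrin (Ltf). Spp1 encodes osteopontin, a secreted phosphoprotein that binds integrins and Cd44. Serum amyloid A proteins (Saa1, Saa2) are acute phase proteins that the liver and many epithelia make in inflammation.

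UMI totals were 927966 and 7505652 for cluster 2 in mouse 1 and mouse 2, against 57701940 and 49466992 for the other annotated cells, so that 3 UMIs in cluster 2 correspond to 3.23 and 0.3997 counts per 1e+06 UMIs (CPM). Cluster 2 cells had a median of 18112 and 10182.5 UMIs, against 14952.5 and 9258 in the other cells, and a median mitochondrial share of 5.38% and 6.75%, against 6.21% and 5.20%. The mitochondrial share was thus lower than in the other cells in mouse 1 and higher in mouse 2. The libraries shared 9 annotated barcodes and 0 barcodes of cluster 2. Cells were clustered on these same expression values, so no test was made of the cluster against the rest. A gene was called higher or lower where its CPM, after TMM scaling, differed at least 2-fold in the same direction in each mouse, with a lower side under 3 UMIs set to 3 UMIs. Fold changes are log2 values of an edgeR fit with the mouse as a block, with their standard error (SE), and CPM beside them are TMM-scaled. With 2 mice an exact test could not go below p = 0.5.

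Secreted acute phase and defence genes were among the largest rises in cluster 2. Saa1 reached 1647 and 2899 CPM in cluster 2 cells of mouse 1 and mouse 2, against 163 and 280 CPM in the other cells, a log2 fold change of 3.36 (SE 0.26). Saa2 reached 788 and 1218 CPM, against 69.3 and 127 CPM (log2 3.38, SE 0.26). Chil1, which encodes a secreted chitinase-like protein, reached 6641 and 3959 CPM, against 561 and 486 CPM (log2 3.30, SE 0.27). In each mouse these 3 genes were at their highest of all 18 clusters in cluster 2.

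The starts of these genes and of Lcn2 are shown because each was called higher in cluster 2 than in the other cells. Lcn2 rose less, at log2 1.24, and was not higher in cluster 2 than in cluster 8. Each line gives the 250 bases before the RefSeq start on GRCm38.p6, on the gene's strand, and capitals mark matches to TTNCNNAA on either strand, a motif of the type bound by C/EBP factors. The RefSeq starts of Saa2 and Lcn2 lie inside the GENCODE genes given below.
Saa1, chr7:46742981-46743230, minus strand: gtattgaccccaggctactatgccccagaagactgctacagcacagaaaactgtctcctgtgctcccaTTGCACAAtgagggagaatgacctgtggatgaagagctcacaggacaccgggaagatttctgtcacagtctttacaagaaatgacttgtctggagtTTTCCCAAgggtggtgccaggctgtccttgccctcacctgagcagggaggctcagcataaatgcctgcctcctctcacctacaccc
Saa2, chr7:46751583-46751832, plus strand: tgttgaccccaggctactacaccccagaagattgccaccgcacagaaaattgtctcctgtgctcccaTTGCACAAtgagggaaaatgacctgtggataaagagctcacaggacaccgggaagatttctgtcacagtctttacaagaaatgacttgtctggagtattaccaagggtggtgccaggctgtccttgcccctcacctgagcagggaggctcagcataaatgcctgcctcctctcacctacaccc
Chil1, chr1:134181906-134182155, plus strand: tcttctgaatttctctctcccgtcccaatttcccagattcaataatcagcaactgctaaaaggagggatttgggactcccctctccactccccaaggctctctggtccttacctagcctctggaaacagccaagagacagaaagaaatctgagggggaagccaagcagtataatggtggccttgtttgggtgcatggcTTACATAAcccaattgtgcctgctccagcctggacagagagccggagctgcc
Lcn2, chr2:32387740-32387989, minus strand: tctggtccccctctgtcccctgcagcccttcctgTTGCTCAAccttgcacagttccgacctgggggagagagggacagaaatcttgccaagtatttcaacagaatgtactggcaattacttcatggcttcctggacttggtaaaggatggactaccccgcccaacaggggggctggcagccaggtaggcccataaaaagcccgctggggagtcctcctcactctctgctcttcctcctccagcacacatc

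The C/EBP type motif was found 2 times before Saa1 and 1 time before each of Saa2, Chil1 and Lcn2, and 36.8% of the 32851 promoters in the table hold it in the same window. None of the 4 windows held GGG and TTTCC set 2 bases apart, an NF-kB type motif found in 1.41% of promoters, or TTCNNNGAA, a STAT type motif found in 7.02%. The Saa1 and Saa2 windows were identical at 238 of 251 aligned positions (94.8%), against 127 of 268 (47.4%) for Saa1 and Chil1. Saa1 (chromosome 7, 46740497 to 46742980, GENCODE vM21 on GRCm38) and Saa2 (46751790 to 46754313) are close paralogs, and the division of reads between them is uncertain.

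The named markers were high in cluster 2, but Spp1 did not lead it. Spp1 (chromosome 5, 104435118 to 104441050) had 2280 and 2872 CPM in cluster 2 cells of mouse 1 and mouse 2, against 934 and 906 CPM in the other cells, a log2 fold change of 1.48 (SE 0.25). Lcn2 (chromosome 2, 32384633 to 32388252), an iron-siderophore binding protein, had 24332 and 20483 CPM, against 10809 and 8221 CPM (log2 1.24, SE 0.25). Krt18 (chromosome 15, 102028180 to 102032027), a luminal keratin, had 8374 and 8846 CPM, against 3989 and 5356 CPM, a log2 ratio of 1.07 in mouse 1 and 0.72 in mouse 2 that missed the 2-fold limit in mouse 2. Among the 18 clusters, cluster 2 ranked 3 and 4 for Spp1, 2 and 3 for Lcn2, and 2 in both mice for Krt18. Cluster 6 was the highest for Spp1 in both mice, at 6811 and 6701 CPM without TMM scaling, against 2290 and 2667 CPM in cluster 2 on that scale. When every cell was thinned to 2000 UMIs, the log2 ratio of Spp1 was 0.99 in mouse 1 and 1.16 in mouse 2, so that its call and that of Lcn2 were lost.

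**Figure D1:**
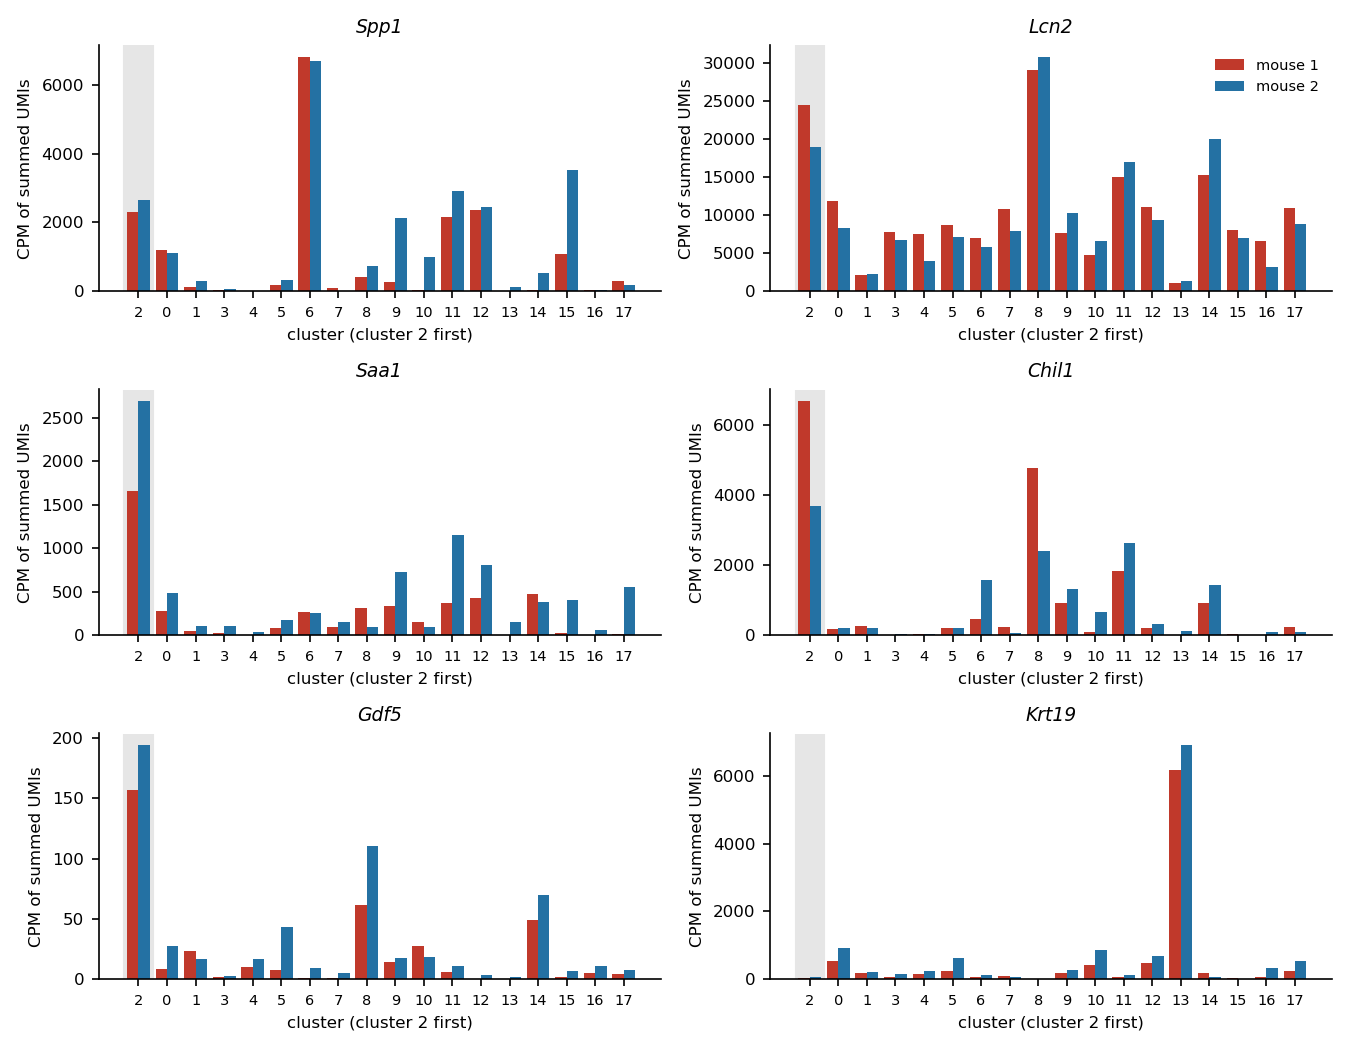
CPM of summed UMIs (linear axes, no TMM scaling) of 6 genes in each of the 18 clusters, cluster 2 at the left on a gray ground, with 1 bar per mouse. Saa1, Chil1 and Gdf5 were highest in cluster 2 in both mice, Spp1 in cluster 6, Lcn2 in cluster 8, and Krt19 was near 0 in cluster 2 and highest in cluster 13.

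Spp1 was unevenly spread among the cells of cluster 2. After thinning to 2000 UMIs, 17 of 47 cells of mouse 1 (36.2%, interval 22.7% to 51.5%) and 391 of 639 cells of mouse 2 (61.2%, 57.3% to 65.0%) held a Spp1 UMI, against 18.8% of the other cells in each mouse. In cluster 13, whose mature luminal score was the highest of the 18 clusters, the shares were 0% (0 of 72 cells, interval up to 4.99%) and 6.56%, at median depths of 15278 and 11818.5 UMIs before thinning. Thinning left out 0 and 23 cells of cluster 2 and 492 and 834 of the other cells, and the shares in cluster 2 before it were 46.8% and 74.5%. The 5 cells of mouse 1 with the most Spp1 UMIs carried 78.0% of those of cluster 2, and the 64 highest cells of mouse 2 carried 50.6%. The median cell of mouse 1 held 0 Spp1 UMIs. Both intervals of mouse 1, thinned and unthinned (32.1% to 61.9%), include 50%, and a cell with 0 UMIs may still express the gene.

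Saa1 followed the same uneven pattern, while Lcn2 and Krt18 did not. Saa1 was detected in 31.9% and 49.8% of thinned cluster 2 cells in mouse 1 and mouse 2, against 5.02% and 11.1% of the other cells and 0% and 2.19% in cluster 13. Within cluster 2, it was detected in 47.1% and 63.9% of cells with a Spp1 UMI, against 23.3% and 27.4% of cells without one, as a description over cells of the same library. Chil1 was detected in 70.2% and 75.6% of cluster 2 cells, against 19.9% and 21.6% of the other cells. Lcn2 had a UMI in all thinned cluster 2 cells of both mice, and Krt18 in all 47 of mouse 1 and 638 of 639 of mouse 2.

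The deposited signature scores placed cluster 2 on the luminal progenitor side. These scores run from 0 to 1 for each cell and signature and were computed by the authors from the same expression values. The mean luminal progenitor score was 0.628 and 0.479 in cluster 2 cells of mouse 1 and mouse 2, against 0.417 and 0.396 in the other cells, and ranked 3 and 5 of 18. The mean mature luminal score was 0.214 and 0.193, against 0.236 and 0.267, and the mean basal score 0.0655 and 0.0367, against 0.245 and 0.224. Only 1 cluster had a lower basal score in each mouse. The luminal progenitor score led the other 2 in 76.6% and 71.1% of cluster 2 cells, against 50.9% and 52.6% of the other cells. This was not particular to cluster 2, since the shares were 82.3% and 75.3% in cluster 0 and 92.4% and 83.1% in cluster 7. Single cells were broadly spread, with quartiles of 0.380 and 0.989 in mouse 1 and 0.118 and 0.888 in mouse 2.

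**Figure D2:**
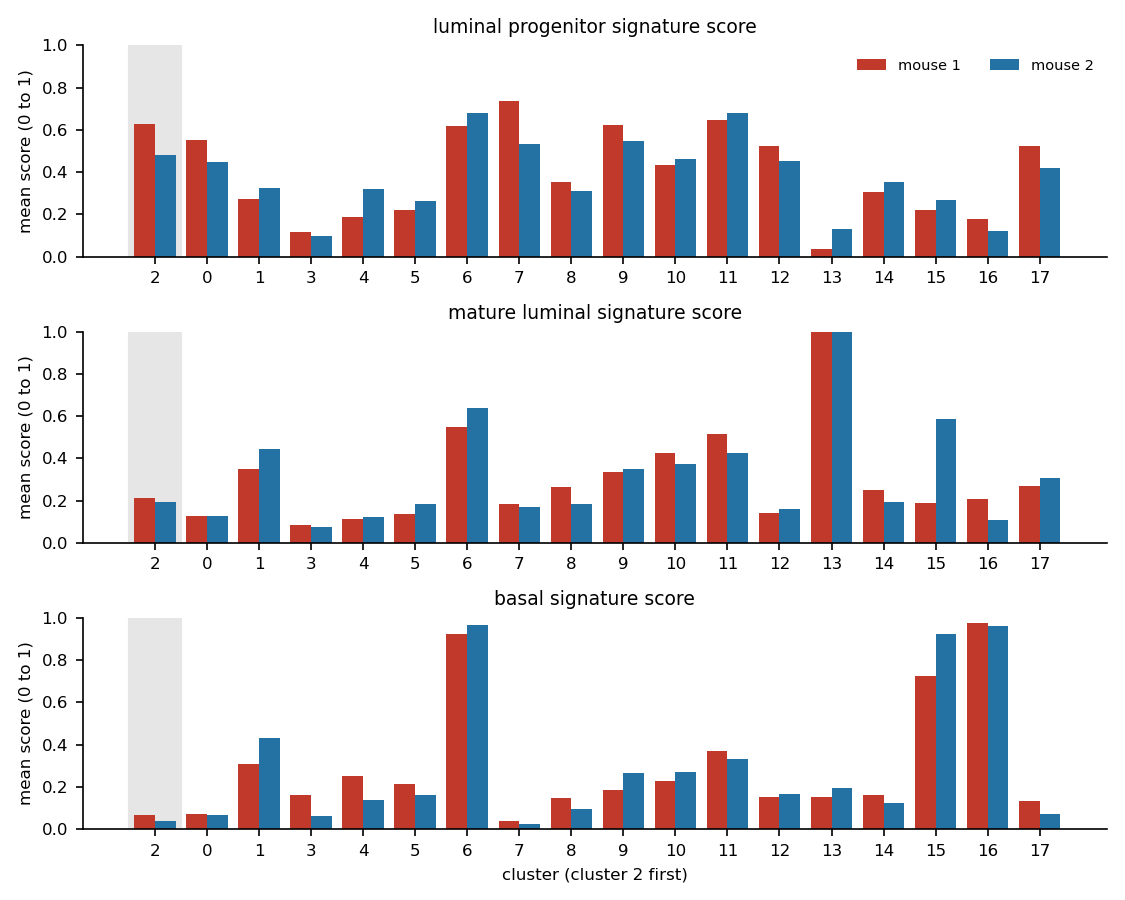
Mean signature score per cluster (0 to 1), cluster 2 at the left on a gray ground, with 1 bar per mouse. The luminal progenitor score of cluster 2 was 0.628 in mouse 1 and 0.479 in mouse 2, and its basal score was under 0.1 in both.

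Of the 13894 genes that passed the filter on low counts, 348 were at least 2-fold higher in cluster 2 in each mouse (2.5%) and 553 at least 2-fold lower (3.98%). At 50 CPM or more in the higher group there were 98 higher and 96 lower genes, and 43 of these 98 had their highest level of all 18 clusters in cluster 2 of both mice. Cluster 2 of a mouse held under 3 UMIs for 87 of the 348 higher genes and 248 of the 553 lower genes, so the deeper genes are named below. In cells thinned to 2000 UMIs, 35 of the 78 named called genes still measured lost their call. Beside those given with their lists, these included Hist1h1b, Wap, Btn1a1, Cited1, Krt5, Cnn1, Mmp3, Thbs2, Cxcl5, Il6, Ccl2, Icam1, Nfkb2, Ifit1, Ifit3, Car9, Gclc, Twist1, Zeb2, Mmp2, Erbb4, Btc and the fibroblast genes Lum, Col3a1, Col1a2 and Dcn. In mouse 1, thinned cluster 2 held only 47 cells of 2000 UMIs. Most lower genes lost were too rare in the other cells for a 2-fold fall to clear the floor of 3 UMIs there.

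The largest rises were led by enzymes and secreted or surface proteins. Cyp2f2, a cytochrome P450 best known from lung club cells, had 264 and 68.4 CPM in cluster 2 cells of mouse 1 and mouse 2, against 9.25 and 7.09 CPM (log2 4.05, SE 0.32). Gdf5, a bone morphogenetic protein family ligand, had 157 and 209 CPM, against 10.2 and 24.002 CPM (log2 3.52, SE 0.29). Pla2g7, a secreted phospholipase that inactivates platelet-activating factor, had 194 and 414 CPM, against 32.2 and 23.3 CPM (log2 3.39, SE 0.31). Both groups were well apart in each mouse for these genes, and all 3 were highest of the 18 clusters in cluster 2.

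Carboxypeptidases and protease inhibitors were also among them. Cpe, which trims prohormones, had 153 and 451 CPM in cluster 2, against 26.8 and 57.4 CPM. The membrane carboxypeptidase gene Cpm had 186 and 492 CPM, against 33.8 and 56.3 CPM. Wfdc3, of the whey acidic protein family of protease inhibitors, had 198 and 252 CPM, against 40.0 and 33.7 CPM, and Kng2, a kininogen, had 41.8 and 80.1 CPM, against 4.06 and 10.8 CPM. Log2 fold changes of these 4 genes lay between 2.61 and 3.10. None of the 4 was at least 2-fold higher in cluster 2 than in cluster 8 in both mice. Ncoa7 and Plb1 were also among the largest rises, at log2 2.83 and 2.52, as were Cd68 and S100a8, which are described with the leukocyte markers.

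**Figure D3:**
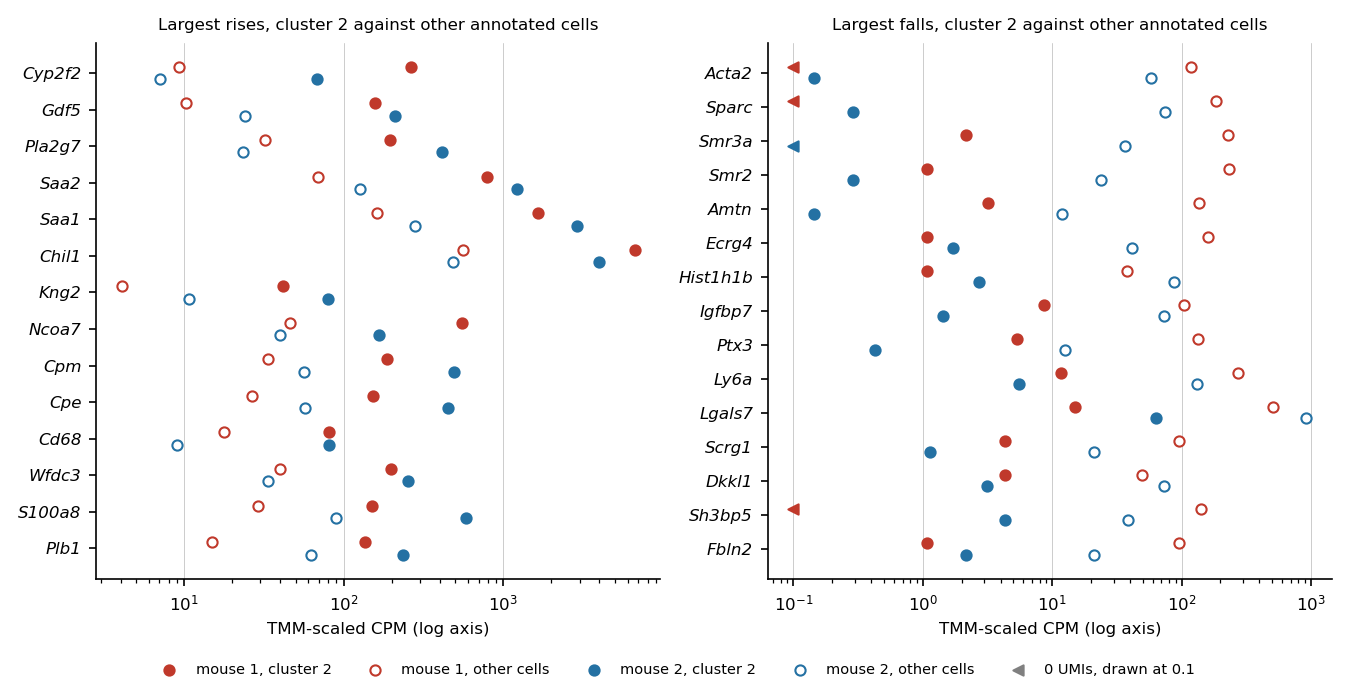
TMM-scaled CPM (log axes) of the largest rises (left) and largest falls (right) by fitted log2 fold change, with filled points for cluster 2, open points for the other annotated cells, and a color per mouse. The filled and open points of a mouse are at least 2-fold apart in every gene, and a triangle at 0.1 marks 0 UMIs.

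Of the acute phase and innate defence list, 5 of 15 genes that passed the filter were higher (Saa1, Saa2, Chil1, Wfdc2 and Lcn2) and 0 lower, where 2.5% of all genes were higher. The list's median log2 fold change was 1.24, against -0.09 over all genes, and it holds a marker of the cluster and genes picked with earlier results of these data known. The summed level of the list was 39286 and 32363 CPM without TMM scaling in cluster 2, against 16548 and 13587 CPM, and ranked 1 and 2 of 18. Wfdc2, another whey acidic protein family gene, had 1176 and 1944 CPM, against 255 and 515 CPM (log2 2.06, SE 0.25). Its highest level was in cluster 13, at 2546 and 4493 CPM without TMM scaling, against 1181 and 1805 CPM in cluster 2 on that scale. Orm1, which encodes the acute phase glycoprotein orosomucoid 1 and was chosen after its values were seen, was rare but also higher, at 8.58 and 15.6 CPM in cluster 2, against 0.362 and 0.989 CPM.

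NF-kB pathway genes were in part higher. Nfkb1, which encodes the p105 precursor of a subunit, had 220 and 271 CPM in cluster 2, against 81.4 and 94.4 CPM (log2 1.48, SE 0.25). Nfkb2, the precursor of the noncanonical subunit, had 48.3 and 68.6 CPM, against 21.8 and 25.6 CPM (log2 1.30, SE 0.30). Icam1, an adhesion molecule and NF-kB target, was lower with 1 and 2 UMIs in cluster 2. In all, 2 of 10 genes of the NF-kB feedback list were higher and 1 lower, where 2.5% of all genes were higher and 3.98% lower. The list's median log2 fold change was 1.02.

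The luminal progenitor list gave a mixed picture. Of its 11 genes, Lcn2 was higher, and Aldh1a3, an aldehyde dehydrogenase of progenitors, and Itga2, an integrin subunit, were lower. Over all genes, 2.5% were higher and 3.98% lower. Aldh1a3 had 1.07 and 5.88 CPM in cluster 2 cells of mouse 1 and mouse 2, against 40.4 and 46.5 CPM (log2 -3.39, SE 0.42). Elf5 had 157 and 101 CPM, against 147 and 116 CPM, and Kit had 104 and 126 CPM, against 37.8 and 65.2 CPM, a log2 ratio of 1.46 in mouse 1 and 0.96 in mouse 2, just under the limit. Elf5 and Kit were chosen after their values were seen. The calls of Lcn2, Aldh1a3 and Itga2 were lost in cells thinned to 2000 UMIs. For Aldh1a3 and Itga2, the other cells of mouse 1 were too low for a 2-fold fall to clear the floor of 3 UMIs there.

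Luminal keratins were not uniformly high. Krt19 (chromosome 11, 100140810 to 100148665) had 24.7 and 64.0 CPM in cluster 2, against 340 and 771 CPM (log2 -3.67, SE 0.28), and was the 1 gene called of the 9 in the pan-luminal list. Over all genes, 2.5% were higher and 3.98% lower. Krt8, chosen after its values were seen, had 6835 and 6528 CPM, against 4693 and 6179 CPM. In thinned cells Krt19 was detected in 4.26% and 5.32% of cluster 2, against 19.5% and 40.2% of the other cells, and in 98.6% and 99.5% of cluster 13. Low Krt19 was not particular to cluster 2, since cluster 8 had 16.3 and 7.46 CPM of Krt19 beside 5427 and 4143 CPM of Krt18 without TMM scaling.

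Some mature luminal genes were low. Of 10 measured genes, 3 were lower, among them Areg and Cited1, and Prom1 was higher. Over all genes, 3.98% were lower and 2.5% higher. Areg, an EGF receptor ligand induced by estrogen, had 97.6 and 132 CPM in cluster 2, against 644 and 307 CPM (log2 -1.94, SE 0.29), and with Btc and Erbb4 it made up the 3 lower genes of 9 in the EGF receptor family list. Prom1, a membrane protein of hormone-sensing luminal cells, had 50.4 and 97.9 CPM, against 22.7 and 41.3 CPM (log2 1.20, SE 0.28).

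Several basal, mesenchymal and matrix genes were low in cluster 2, with summed levels that differed between the mice. Of 10 basal and myoepithelial genes, 5 were lower (Acta2, Krt5, Myl9, Cnn1 and Tagln) and 0 higher, where 3.98% of all genes were lower. Acta2, smooth muscle actin, had 0 and 1 UMIs in cluster 2 cells of mouse 1 and mouse 2, where the level of the other cells gives 515 UMIs in all. Sparc, a matricellular protein, had 0 and 2 UMIs where 691 correspond to that level, a ratio of 0.00290 (95% counting interval 0.000351 to 0.0105). Of the EMT and mesenchymal list, Vim, Zeb2, Twist1 and Mmp2 were lower and Mmp14 higher of 10 genes, where 2.5% of all genes were higher. Vimentin (Vim) had 26.8 and 24.4 CPM, against 202 and 60.2 CPM (log2 -2.01, SE 0.31). Cluster 6 was the highest for Vim and Mmp2 in both mice. Among the 18 clusters, cluster 2 ranked 15 and 7 for Vim, and 6 in both mice for Mmp2. The summed basal list was 10.8 and 124 CPM without TMM scaling, against 417 and 251 CPM, and ranked 17 and 6 of 18. The summed EMT list was 83.0 and 153 CPM on that scale, against 295 and 128 CPM, and ranked 17 and 4. Krt14, a basal keratin chosen after its values were seen, differed between the mice, with 0 UMIs in mouse 1 and 91.5 CPM in mouse 2, against 52.4 and 84.9 CPM. Sparc and Thbs2 were the lower genes of 9 in the matricellular list, with 0 higher.

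Other large falls included secreted and surface proteins. Lgals7, an epithelial galectin, had 15.02 and 63.1 CPM in cluster 2, against 510 and 922 CPM (log2 -4.34, SE 0.31). Ly6a, which encodes the surface protein Sca-1, had 11.8 and 5.596 CPM, against 273 and 132 CPM (log2 -4.55, SE 0.31). Igfbp7, a secreted insulin-like growth factor binding protein, had 8.58 and 1.43 CPM, against 105 and 73.4 CPM. The submandibular-type secreted gene Smr3a held 2 and 0 UMIs, where the level of the other cells gives 467, a ratio of 0.00429 (0.000519 to 0.0155). Smr2, Amtn, Ecrg4, Hist1h1b, Ptx3, Scrg1, Dkkl1, Sh3bp5 and Fbln2 made up the rest of the 15 largest falls, with fitted log2 fold changes between -6.97 and -4.06.

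Many proliferation genes and some milk genes were low as well. Of 15 proliferation genes, 8 were lower and 0 higher, where 3.98% of all genes were lower, with a median log2 fold change of -2.60. The summed list was 123 and 117 CPM without TMM scaling, against 252 and 428 CPM, and ranked 10 and 14 of 18. In cells thinned to 2000 UMIs the calls of Birc5, Rrm2, Top2a and Cenpf were lost. In mouse 1 these genes were too rare in the other cells for a 2-fold fall to clear the floor of 3 UMIs at that depth. Birc5, which encodes survivin, had 0 and 4 UMIs in cluster 2, against 13.5 and 28.3 CPM in the other cells. Top2a, a topoisomerase of dividing cells, had 2.15 and 1.58 CPM, against 17.9 and 36.1 CPM. It was highest in cluster 16, at 491 and 415 CPM without TMM scaling. On that scale Top2a was as low in cluster 0, at 1.91 and 1.22 CPM, as in cluster 2, at 2.16 and 1.47 CPM. Of 10 milk protein and milk fat genes, Lalba, Btn1a1 and Wap were lower and 0 higher. Lalba, the milk protein that makes lactose synthase, had 47.2 and 11.1 CPM, against 191 and 307 CPM (log2 -3.47, SE 0.40). Wap had 0 UMIs in cluster 2 of both mice, where the level of the other cells gives 94.5, a ratio of 0 (95% counting interval up to 0.0390).

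Metabolic genes changed singly. Scd1, which desaturates fatty acids, had 646 and 2606 CPM in cluster 2, against 217 and 779 CPM (log2 1.66, SE 0.25), and was the 1 called gene of 13 in the lipid list. Hk2, the hexokinase of glycolytic cells, had 145 and 125 CPM, against 36.6 and 45.2 CPM (log2 1.72, SE 0.26), while Car9, a hypoxia-induced carbonic anhydrase, was lower at 11.8 and 3.73 CPM, against 50.5 and 35.0 CPM. Mt2, a metallothionein, had 25.7 and 8.61 CPM, against 91.6 and 221 CPM, and Gclc was the other lower gene of 9 in the antioxidant list. None of the antigen presentation, unfolded protein, immediate early, heat shock, luminal transcription factor and cell cycle regulator lists had a called gene. Over all genes, 2.5% were higher and 3.98% lower.

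**Figure D4:**
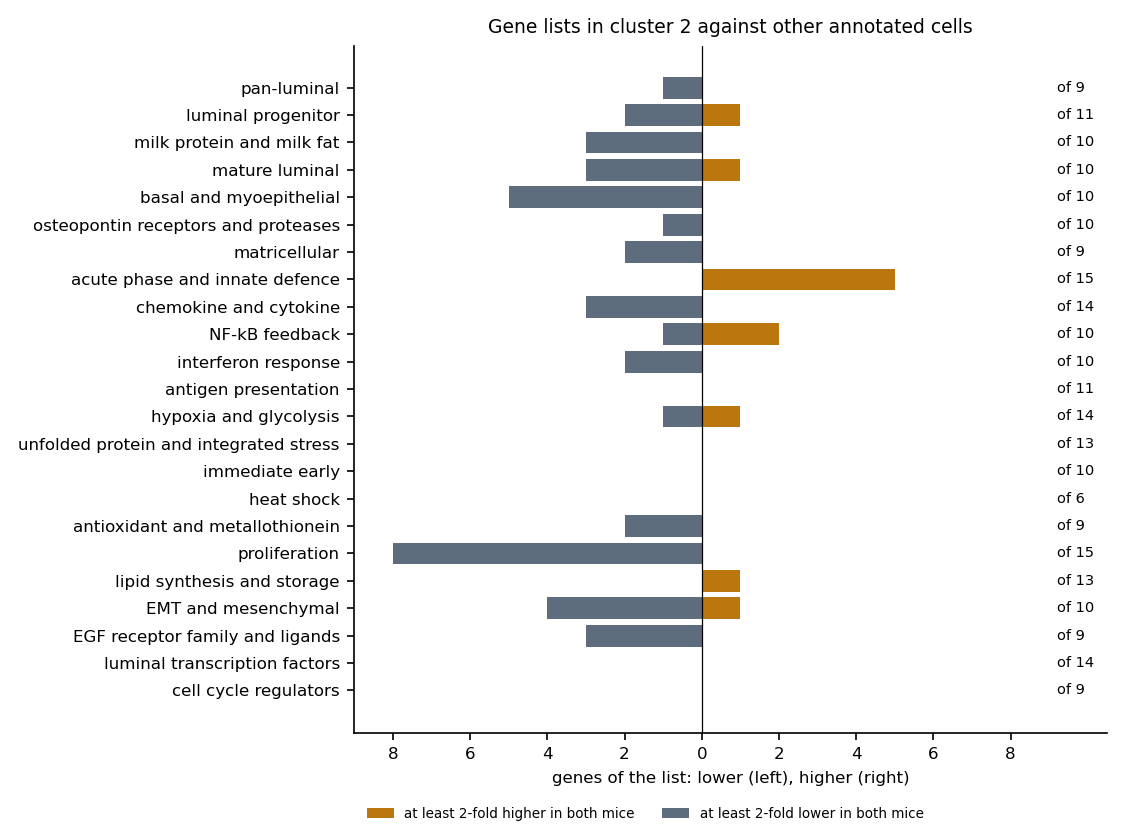
Number of genes of each list that were at least 2-fold higher (right) or lower (left) in cluster 2 in both mice, with the number that passed the filter at the right edge. The proliferation list had 8 of 15 lower and the acute phase and innate defence list 5 of 15 higher.

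Receptors and proteases for osteopontin did not move with Spp1 in both mice. Of 10 measured genes of that list 0 were higher and 1, Mmp3, was lower with 0 UMIs in cluster 2. Over all genes, 2.5% were higher and 3.98% lower. Cd44, a receptor of osteopontin chosen after its values were seen, had 130 and 122 CPM in cluster 2, against 159 and 158 CPM.

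Single genes known from leukocytes were higher in cluster 2, while some defining leukocyte genes were at 0 UMIs in both mice. Cd68, a lysosomal protein abundant in macrophages, had 80.5 and 80.9 CPM in cluster 2, against 17.7 and 9.09 CPM (log2 2.69, SE 0.31), and S100a8, an alarmin abundant in neutrophils, had 150 and 588 CPM, against 29.0 and 89.3 CPM (log2 2.55, SE 0.26). The defining leukocyte genes Ptprc and Csf1r were at 0 UMIs in cluster 2 of both mice, as were Csf3r, Retnlg and Ly6g. Such genes can be scarce in the other cells too, where 3 of 6 neutrophil genes had a UMI in mouse 1. The 0 UMIs thus need not set cluster 2 apart. Lyz2, Adgre1, C1qa, C1qb, Fcer1g, Tyrobp, Ms4a7 and Cxcr2 were at 0 UMIs in mouse 1 but had UMIs in mouse 2. S100a9, the usual partner of S100a8, chosen after its values were seen, had 0 and 5 UMIs. The summed macrophage list was 83.0 and 84.5 CPM without TMM scaling, of which Cd68 gave 80.8 and 75.1 CPM, against 21.8 and 16.2 CPM, with UMIs for 3 and 10 of its 12 genes, and it ranked 1 of 18 in both mice. C1qc and Aif1 of that list also passed the limit, each on 1 and 6 UMIs. Of its 8 genes in the fit, 3 were higher and 0 lower, where 2.5% of all genes were higher. The median log2 fold change of the macrophage list was 1.15. UMIs of 3 or more leukocyte genes were found in 1 of 47 (2.13%) and 12 of 662 (1.81%) cluster 2 cells, against 25 of 3782 (0.661%) and 28 of 4668 (0.5998%) of the other cells, a higher share in cluster 2 in both mice. Without such cells the log2 fold change was 2.71 for Cd68 and 2.54 for S100a8. Fibroblast genes summed to 0 and 5.33 CPM in cluster 2, against 93.0 and 112 CPM. Of these 8 genes 5 were called lower, where 3.98% of all genes were lower. T, NK and B cell genes summed to at most 0.3997 CPM. The neutrophil list summed to 151 and 547 CPM, against 29.4 and 96.9 CPM, and ranked 1 and 2 of 18. S100a8 alone gave 150.9 and 545.7 CPM of the sums in cluster 2, without TMM scaling. Endothelial genes summed to 16.2 and 31.0 CPM, against 8.75 and 33.6 CPM, Schwann cell genes to 24.8 and 60.5 CPM, against 59.7 and 64.2 CPM, and pericyte, erythroid and adipocyte genes to at most 2.16 CPM in cluster 2, with 0 called genes in these 5 lists.

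The mice differed in the inflammatory genes of cluster 2. The chemokine list had 0 higher and 3 lower genes of 14 (Cxcl5, Ccl2 and Il6), and the interferon list 0 higher and 2 lower of 10 (Ifit1 and Ifit3). Over all genes, 2.5% were higher and 3.98% lower. In mouse 1, Cxcl1 and Cxcl2, chemokines that draw neutrophils, reached 534 and 647 CPM in cluster 2, against 84.3 and 160 CPM in the other cells. In mouse 2 they were at 44.3 and 6.74 CPM in cluster 2, against 169 and 192 CPM. Ltf (lactoferrin) behaved likewise, with 480 CPM in cluster 2 of mouse 1 and 19.7 CPM in mouse 2, against 94.9 and 164 CPM. The lipopolysaccharide co-receptor gene Cd14 had 1187 and 492 CPM, against 237 and 482 CPM. The interferon-induced genes Rsad2, Ifi27l2a and Irf7 were above the other cells in mouse 1 and below them in mouse 2, unlike Ifit1 and Ifit3, with log2 ratios of 1.87 and -2.73 for Rsad2, 1.57 and -3.28 for Ifi27l2a, and 1.24 and -1.11 for Irf7. These 7 genes were chosen after their values were seen, none was called, and with 47 cells in mouse 1 and 1 animal for each value the difference between mice was not tested. It was not particular to cluster 2, since all 7 genes were also higher in mouse 1 than in mouse 2 in cluster 8. Without TMM scaling, cluster 8 had 378 and 74.6 CPM of Cxcl1, 346 and 1.29 CPM of Cxcl2, and 152 and 26.2 CPM of Ltf.

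Among called genes with 50 CPM or more in cluster 2 of both mice, the ratio differed most between mice for Xist, Bik, Pla2g7, Cyp2f2 and Ncoa7. Xist (chromosome X, 103460366 to 103483254), the RNA that silences the inactive X chromosome, had 76.2 and 1017 CPM in cluster 2 cells of mouse 1 and mouse 2, against 778 and 2478 CPM in the other cells (log2 -2.26, SE 0.32). It was also low in clusters 8 and 14, at 12.2 and 789 CPM and at 203 and 422 CPM without TMM scaling, against 76.5 and 944 CPM in cluster 2 on that scale. Bik, a proapoptotic BH3-only gene, had 240 and 154 CPM, against 34.7 and 69.7 CPM (log2 1.95, SE 0.30).

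**Figure D5:**
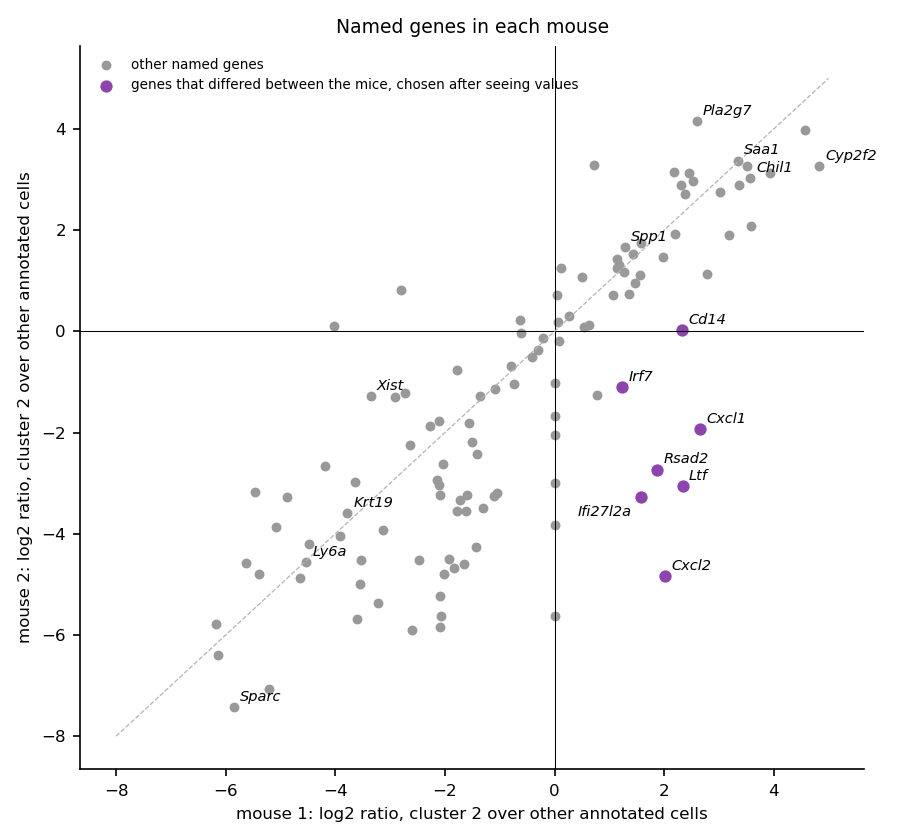
Log2 ratio of cluster 2 over the other annotated cells in mouse 1 (horizontal) and mouse 2 (vertical) for the named genes, with the line of equal ratios dashed. Genes at 0 on an axis had too few UMIs for a ratio beyond the floor of 3 UMIs, and Cxcl2, Ltf, Rsad2, Ifi27l2a, Cxcl1 and Irf7 lie to the right of 0 in mouse 1 and below 0 in mouse 2.

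Cluster 8 was the most like cluster 2, followed by clusters 0 and 10, by the correlation of log2(CPM + 10) across the 13894 genes (Pearson r of 0.962 and 0.971 for cluster 8, 0.939 and 0.944 for cluster 0, and 0.929 and 0.952 for cluster 10, a description over genes that share libraries). On plain CPM, Chil1 was at 6670 and 3676 in cluster 2, against 4755 and 2405 in cluster 8. Gdf5, Pla2g7, Kng2, Ncoa7, Cpm, Cpe, Wfdc3, Wfdc2, Plb1 and S100a8 also stayed under a 2-fold difference in at least 1 mouse. Lcn2 was higher in cluster 8 in both mice, at 29068 and 30783 CPM, against 24438 and 19019.5 CPM in cluster 2. Saa1 kept apart, with 1654 and 2692 CPM in cluster 2, against 308 and 94.6 CPM in cluster 8. Spp1 had 2290 and 2667 CPM, against 408 and 723 CPM, Cd68 80.8 and 75.1 CPM, against 16.0 and 21.6 CPM, and Kit 105 and 117 CPM, against 21.2 and 36.8 CPM. Birc5, Top2a and Vim were lower in cluster 2 than in cluster 8 as well. Several falls were shared with cluster 8, where Lgals7 was at 10.3 and 18.5 CPM, Ly6a at 6.42 and 1.29 CPM, Aldh1a3 at 1.93 and 1.03 CPM, and Acta2, Sparc and Wap each under 1 CPM in both mice. Of the 13894 genes, 341 were at least 2-fold higher (2.45%) and 315 at least 2-fold lower (2.27%) in cluster 2 than in cluster 8 in both mice.

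Cluster 0, the largest cluster, differed from cluster 2 in Chil1 more than in Spp1. Chil1 was 37.4-fold and 17.03-fold higher in cluster 2 than in cluster 0 in mouse 1 and mouse 2, and Saa1 5.88-fold and 5.51-fold higher, whereas Spp1 was 1.92-fold and 2.42-fold higher. Krt19 had 24.8 and 59.4 CPM in cluster 2, against 532 and 914 CPM in cluster 0 and 415 and 864 CPM in cluster 10, but it was lower still in cluster 8, at 16.3 and 7.46 CPM. Spp1 in cluster 10 was at 40.9 CPM in mouse 1 and 995 CPM in mouse 2, against 2290 and 2667 CPM in cluster 2.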

How the data were processed

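Single-cell RNA from sorted GFP-positive tumor cells of 2 mice was analysed. UMI counts without normalization stand in the matrices deposited by the authors, made with Cell Ranger (6.0.1, build mm10). The deposited annotation by the authors gives each cell's cluster and a signature score from 0 to 1, and the fraction of mitochondrial UMIs that the authors computed. Per the paper, doublets were removed with scDblFinder, shallow and outlying cells were filtered, sctransform and Seurat (4.0.3 in the submitters' processing notes) served for scaling and for joining the mice, and clusters of immune cells were taken out ahead of a new clustering.

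UMIs were summed per mouse over cluster 2 and over all other annotated cells, all of which were found in the matrices by barcode, with totals up to 1548 UMIs from those of the annotation. edgeR 4.0.16 (R 4.3.3) with filterByExpr, TMM and the mouse as a block gave log2 fold changes and SE. The floor of 3 UMIs was applied to the lower side alone, so that it could not create a difference. No test was made. DESeq2 1.42.0 served as an alternative. On simulated sums the fit was checked before use. Members and gene lists were chosen with earlier results of these data known. Named were Krt18, Spp1 and Lcn2, the 15 largest rises and falls at 50 CPM or more, up to 4 called members of each list or else the 2 highest, and the 5 called genes that differed most between mice. Promoters came from RefSeq. Barcodes without annotation were left out. Some of the genes that the rule names are not reported here.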

Additional observations from a re-analysis of the deposited data

Results flagged for a closer look

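Signal for Spp1 and Saa1 was present in barcodes outside every comparison, those without annotation and with UMIs of under 3 macrophage genes. Spp1 was at 428 and 313 CPM in these barcodes of mouse 1 and mouse 2, and Saa1 at 89.4 and 259 CPM. These levels were below those of the other annotated cells, at 934 and 906 CPM for Spp1 and 163 and 280 CPM for Saa1 after TMM scaling. These barcodes numbered 2322 and 2022. In the 24 and 186 barcodes without annotation that had 3 or more macrophage genes, Spp1 was at 11.8 and 665 CPM and Saa1 at 11.8 and 27.3 CPM.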

How the results depend on the processing

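The 348 higher and 553 lower genes became 212 and 122 when cells were thinned to 2000 UMIs, which tests 10625 genes, and 743 and 2880 by the DESeq2 fit, whose fold pools the mice. In thinned cluster 2 of mouse 1 the floor of 3 UMIs leaves rare genes no room for a 2-fold fall. The drop in lower genes is thus in part set by the floor. Leaving out 1 mouse gave 1067 to 1220 higher and 1501 to 2137 lower genes, as 1 mouse then decides each call. With DESeq2 size factors, plain CPM, no filter, a rest without clusters 1 and 5, equal weights for the 17 other clusters, or without cells of 3 or more leukocyte genes, the counts lay between 269 and 362 and between 545 and 663. TMM scaling moved the log2 ratios of mouse 2 by 0.20 relative to plain CPM, which gave 269 higher and 663 lower genes.

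Of 80 named genes that were called, 43 of the 78 measured kept the call in thinned cells, Saa1 and Chil1 among them, and 76 or more under each other setting. Leaving out 1 mouse cannot lose a call, since a called gene passed the limit in each mouse. The DESeq2 fit pools mice that both passed, so it too says little here. C1qc turned to a log2 fold change of -0.026 without cells of 3 or more leukocyte genes, and no other called gene changed sign. The share of cluster 2 cells with a Spp1 UMI in mouse 2 was 74.5% unthinned and 54.3% at 1000 UMIs. Cluster 2 was 14.3% of annotated cells of mouse 2 among cells of 2000 UMIs or more. Cells of the same mouse were both groups of each comparison, so the mouse was a block in the main values, and no fit without it was made. The 47 cells of mouse 1 limit what can be seen there, since 1 UMI is 1.08 CPM.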
